A study of Homo sapiens with 49 samples.

Results

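RARA, the retinoic acid receptor alpha, was mapped by chromatin immunoprecipitation followed by sequencing (ChIP-seq) in Ishikawa cells, an endometrial adenocarcinoma line, and in T-47D cells, a breast carcinoma line. The regions described here are the 767 peaks of the Ishikawa RARA list after 17β-estradiol (E2) that overlapped, by at least 1 bp, a RARA peak of T-47D cells treated with vehicle (DMSO) or with E2. They are called members below. They made up 26.6% (exact binomial 95% confidence interval 25 to 28.3%, counting error only) of the 2881 Ishikawa E2 peaks on chromosomes 1 to 22 and X, and the other 2114 peaks of that list are called other peaks. The members were chosen by the RARA peaks of these libraries themselves, so their RARA values are given as a description without a test.

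Per the study's methods, both lines were moved to hormone-depleted medium for several days, and they then received DMSO or 10 nM E2. Treatment lasted 1 h for transcription factor libraries and 8 h for those of histone modifications, as the labels state it. The SIN3A libraries instead compared stripped with full medium. Of 49 samples, 45 had a peak list and the other 4 were inputs. RNA polymerase II (RNAPII, labelled Pol2) in T-47D had 2 libraries per treatment and every other group had 1, so that no difference between groups other than that of RNAPII could be tested. The RARA lists held 136 peaks in Ishikawa under DMSO, 2881 in Ishikawa under E2, 838 in T-47D under DMSO and 750 in T-47D under E2. The lists state no read depth, and the number of peaks depends on depth as well as on occupancy. As a check of the line labels, H3K4me3 under E2 covered start sites of PAX8, EMX2, SOX17 and HOXA10 in Ishikawa alone and of SPDEF in T-47D alone, while GATA3, TRPS1, ESR1 and TFAP2A were covered in both. The lists labelled H3K27me3 went against the usual distribution of that mark: 81.7% and 96.4% of their regions in Ishikawa (DMSO and E2) and 85.7% in T-47D under DMSO overlapped H3K4me3, against 4.04% of 99 regions in T-47D under E2.

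RARA is a nuclear receptor that binds retinoic acid and regulates genes as a heterodimer with a retinoid X receptor. Its classical element is a direct repeat of the hexamer AGGTCA with a spacer of 1, 2 or 5 bases (DR1, DR2 and DR5), and without ligand it recruits corepressors, among them complexes with SIN3A. In estrogen receptor-positive cells RARA is known as an estrogen-induced gene and as a partner at estrogen receptor sites. The CCAAT box, which recurs below, is a promoter element of many housekeeping and cell cycle genes, commonly a little upstream of the start site, and is the element of the trimeric factor NF-Y.

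The sequences that follow come from the reference genome GRCh37 (hg19), the build of the peak lists. Each shows 120 bases centred on the Ishikawa E2 summit, 5′ to 3′, on the strand of the gene at whose start the peak lay and otherwise on the plus strand. They are shown because the CCAAT box was the motif that set members apart most, and capitals mark CCAAT or its reverse complement ATTGG. DNM2 (chr19:10828384-10828503, plus strand) and SP2 (chr17:45973393-45973512, plus strand) are promoter members among the 10 strongest. SKA2 (chr17:57232620-57232739), TOP2A (chr17:38574235-38574354), HSPA5 (chr9:128003786-128003905) and HMGCS1 (chr5:43313794-43313913), all on the minus strand, stand for gene families described below. NFIC (chr19:3344250-3344369) and PRKX (chrX:3732909-3733028) are the nearest protein-coding genes of a pair of members far from any start site.
DNM2: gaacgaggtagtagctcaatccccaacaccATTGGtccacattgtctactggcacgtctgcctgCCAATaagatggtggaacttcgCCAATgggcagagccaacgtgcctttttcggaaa
SP2: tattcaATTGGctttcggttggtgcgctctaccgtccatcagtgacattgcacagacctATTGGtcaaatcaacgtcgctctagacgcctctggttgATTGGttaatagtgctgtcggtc
SKA2: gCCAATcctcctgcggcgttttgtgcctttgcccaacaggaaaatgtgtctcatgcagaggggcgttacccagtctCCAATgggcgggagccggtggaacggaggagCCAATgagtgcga
TOP2A: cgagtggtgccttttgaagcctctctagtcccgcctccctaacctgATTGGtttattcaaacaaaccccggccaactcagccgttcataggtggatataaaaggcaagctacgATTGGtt
HSPA5: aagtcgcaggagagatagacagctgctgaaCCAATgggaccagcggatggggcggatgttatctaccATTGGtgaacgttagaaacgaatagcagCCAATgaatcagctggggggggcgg
HMGCS1: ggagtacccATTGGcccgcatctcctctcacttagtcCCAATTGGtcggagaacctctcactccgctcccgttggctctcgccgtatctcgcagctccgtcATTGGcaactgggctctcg
NFIC, distal: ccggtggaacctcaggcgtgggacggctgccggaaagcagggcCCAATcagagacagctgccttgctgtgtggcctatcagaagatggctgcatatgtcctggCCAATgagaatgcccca
PRKX, distal: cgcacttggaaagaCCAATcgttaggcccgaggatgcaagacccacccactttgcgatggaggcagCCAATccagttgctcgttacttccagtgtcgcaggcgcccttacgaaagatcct
Only windows with at least 1 CCAAT box inside the 120 bases could be chosen, so its presence here is not a result. Those printed held at least 2, and HMGCS1 held 4. The window at METTL17, another of the 10 strongest members, held 1 and is not printed. In the HMGCS1 window a CCAAT and an ATTGG share 2 bases and were counted as 2 boxes.

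For contrast, the next sequences show a DR1 found among the members, as 30 bases centred on the repeat, and 120 bases at the summits of a pair of other peaks with an AP-1 motif, the element of JUN and FOS dimers. Capitals mark the repeat or the AP-1 motif. The DR1 lay at chr3:48481531-48481560 (minus strand) at the promoter shared by CCDC51 and TMA7. The other peaks, on the plus strand, lay 1347 bp downstream of a start of POLRMT (chr19:624102-624221, fold enrichment 20.9) and at -194347 bp from the nearest protein-coding start, that of FSCB (chr14:45170773-45170892, 19.6). They were picked after their values were seen, as the strongest distal other peaks with the motif inside the window.
CCDC51, DR1: gtactaacAGGTCAGAGGTCAactgagtgg
POLRMT, other peak: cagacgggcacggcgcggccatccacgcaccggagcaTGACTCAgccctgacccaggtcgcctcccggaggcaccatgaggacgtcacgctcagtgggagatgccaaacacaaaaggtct
FSCB, other peak: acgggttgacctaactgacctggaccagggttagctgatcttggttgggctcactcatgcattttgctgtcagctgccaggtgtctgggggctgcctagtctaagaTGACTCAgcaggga

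Members were recovered across the RARA lists of both lines. Of the 767, 534 (69.6%) had a peak in both T-47D lists, 136 in the DMSO list alone and 97 in the E2 list alone. They took up most of the shorter lists: Ishikawa E2 peaks overlapped 80.1% of the 838 T-47D DMSO peaks and 84.3% of the 750 T-47D E2 peaks. In the Ishikawa DMSO list, which the choice of members did not use, 119 members (15.5%, interval 13.0 to 18.3%) had a peak, against 8 of 2114 other peaks (0.378%, interval 0.164 to 0.744%). Seen from that list, 118 of its 136 peaks (86.8%) lay at a member. A peak in all 4 RARA lists was found at 115 members, whose median Ishikawa E2 fold was 24.3 beside 11.5 for all members. The part of peak strength in the share with an Ishikawa DMSO peak was not tested. With a fold enrichment of at least 10 required in every RARA list, 277 members remained of 1061 Ishikawa E2 peaks.

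The summits of most members lay close together in both lines, which the choice of overlapping peaks favours. The distance from the Ishikawa E2 summit to the nearest T-47D summit had a median of 13 bp (quartiles 5 and 30, largest 609), within peaks of a median width of 384 bp. The overlap with the T-47D peak was 50 bp at the least and 282 bp at the median. The shortest overlaps were at SNRPD2 (50 bp), a core spliceosomal protein, METTL25 (73 bp) and GMNN (94 bp), the inhibitor of replication licensing geminin. Just outside the rule, the nearest other peaks lay 86 bp (SERTAD2), 167 bp (PHF5A) and 360 bp (TCP1) from a T-47D RARA peak.

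Members were the stronger part of the Ishikawa E2 list. Their fold enrichment at the summit, the ratio of ChIP pileup to local background, had a median of 11.5 (quartiles 7.77 and 16.9, range 1.86 to 70.6), beside 8.41 (6.73 and 10.4) for other peaks. Their median width was 384 bp beside 254 bp. In T-47D the members had a median fold of 8.97 under DMSO (n = 670) and 8.60 under E2 (n = 631). Over the 534 members in both T-47D lists, the E2 value divided by the DMSO value had a median of 0.916, and 180 of 534 were higher under E2. At the 115 members in all 4 lists, the median was 10.8 in Ishikawa under DMSO and 24.3 under E2, against 16.3 and 15.4 in T-47D. Whether these differences exceed the spread between libraries cannot be told, since each value rests on 1 library.

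Across members, log2 fold enrichment in the T-47D lists under DMSO and E2 had a Pearson r of 0.912 (n = 534 peaks). Between Ishikawa E2 and T-47D the r was 0.720 for DMSO (n = 670) and 0.726 for E2 (n = 631). These values describe peaks that share their libraries and are not independent replicates.

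The strongest members, ranked by the lower of the Ishikawa E2 fold and the higher T-47D fold, were promoter peaks at genes of varied function. At DNM2, which encodes the endocytic GTPase dynamin 2, the fold enrichment was 31.7 in Ishikawa DMSO, 39.8 in Ishikawa E2, 43.1 in T-47D DMSO and 35.2 in T-47D E2. At SP2, a zinc finger factor of the SP family, the values in the same order were 32.8, 55.1, 38 and 32.3. DNM2 thus had its highest value in T-47D DMSO and SP2 in Ishikawa E2.

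At RFX1, a regulatory factor X protein, the 4 values were 19.7, 36.2, 49.1 and 38.4. At BMAL1, a core factor of the circadian clock, they were 15.7, 29.2, 40 and 41.0, and at P4HB, a protein disulfide isomerase of the endoplasmic reticulum, 26.1, 48.2, 27.6 and 27.9. The Ishikawa E2 value exceeded the Ishikawa DMSO value at each of the 10 strongest members, among them also METTL17, EVI5L, DOLPP1 and STIP1. The ranking used the Ishikawa E2 fold but not the Ishikawa DMSO fold, which favours this order. All 10 had peaks in both Ishikawa RARA lists and in both T-47D RARA lists.

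**Figure D1:**
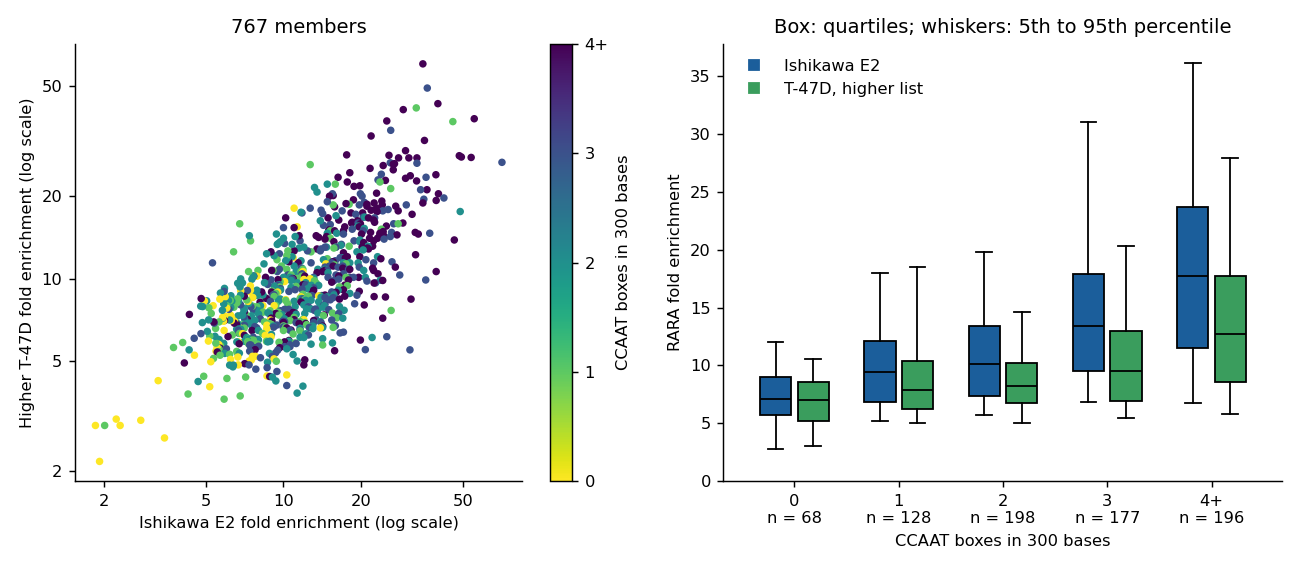
Left, RARA fold enrichment of each of the 767 members in Ishikawa E2 (x axis) and in the T-47D list with the higher value (y axis), both on log scales, coloured by the number of CCAAT boxes in 300 bases around the summit. Right, the same values grouped by that number; the medians ran from 7.11 to 17.7 in Ishikawa and from 7.0 to 12.7 in T-47D.

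Nearly all members were promoter peaks. A GENCODE start site lay within 250 bp of 728 members (94.9%, interval 93.1 to 96.4%) and of 862 other peaks (40.8%, 38.7 to 42.9%). Start sites of protein-coding genes on both strands, as at a bidirectional promoter, were at 154 members (20.1%) and 107 other peaks (5.06%). Among members away from promoters, 14 summits lay in introns (1.83%), 21 were intergenic (2.74%), 2 lay in a UTR, 2 in a noncoding exon and 0 in a coding exon. Other peaks lay in introns in 33.5% and in intergenic sequence in 20.6%. By chromosome, 90 members were on chromosome 19, 78 on chromosome 1 and 65 on chromosome 17, and 15 of the 25 Ishikawa E2 peaks on chromosome X were members.

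The member summit typically sat just upstream of the start. Over the 705 members at a protein-coding start, the median position was -73 bp (quartiles -115 and -28) and 87.8% were upstream. Over the 769 other peaks at such a start, the median was -53 bp and 78.9% were upstream. When the Ishikawa E2 list was divided into 3 equal groups by fold enrichment, members were 90.8%, 93.7% and 97.0% promoter peaks from the weakest to the strongest group, while other peaks were 60.6%, 32.5% and 23.7%. Members were 18.1%, 16.5% and 45.2% of those groups.

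The 33 members with no start site within 1000 bp included strong ones. The strongest lay in a UTR at chrX:49047302-49048123, 3403 bp downstream of the nearest protein-coding start, that of SYP (synaptophysin, a synaptic vesicle protein), with folds of 26.1 in Ishikawa E2, 28.0 in T-47D DMSO and 34.5 in T-47D E2. In an intron at chr19:3344027-3344618, at -15251 bp from a start of the nuclear factor I gene NFIC, the values were 42.0, 19.6 and 15.4, and 15.1 in Ishikawa DMSO. In intergenic sequence at chrX:3732829-3733200, at -101279 bp from a start of PRKX, they were 18.8, 18.4 and 21.6. The next 5, nearest to NAT16, OR1D5, ZBTB32, TLE3 and TLE2, had Ishikawa E2 folds of 13.6 to 23.3. The TLE genes encode Groucho-type corepressors. All 8 held at least 2 CCAAT boxes, and the windows at NFIC and PRKX are printed above.

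The CCAAT box was the sequence feature that members shared. Within 300 bases around the summit, searched on both strands, it was present in 699 of 767 members (91.1%, interval 88.9 to 93.0%) and in 993 of 2114 other peaks (47%, 44.8 to 49.1%). The contrast was also found within each kind of place: 92.4% of promoter members had it against 62.5% (59.2 to 65.8%) of promoter other peaks, and 26 of 39 distal members (66.7%, 49.8 to 80.9%) against 36.3% (33.6 to 39.0%) of distal other peaks. Of 20098 protein-coding promoters (250 bases before to 50 after the start), 35.8% had it. Among all 512 words of 5 letters (a word and its reverse complement counted as one), CCAAT ranked 1 for the excess of promoter members over all promoters and over promoter other peaks. The median GC content was 61.2% in promoter members, 63.7% in promoter other peaks and 60.3% in all promoters, and its part in the CCAAT shares was not tested.

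Members commonly held several boxes close to the summit. On average there were 2.54 CCAAT boxes per member and 0.851 per other peak. At least 4 boxes were found in 196 members (25.6%), 71 other peaks (3.36%) and 1.21% of all promoters. The box nearest to the summit was at a median distance of 16 bp in members that had one, and within 50 bp in 89.8% of them, beside 28 bp and 66.4% in other peaks. The members' median Ishikawa E2 fold was 7.11 with 0 boxes, 9.41 with 1, 10.1 with 2, 13.4 with 3 and 17.7 with at least 4. In other peaks the same medians stayed between 7.60 and 9.72. In promoter other peaks alone they were 6.94, 6.76, 7.44, 7.96 and 8.98 in the same order. A match is a string of letters and does not show which protein was bound.

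**Figure D2:**
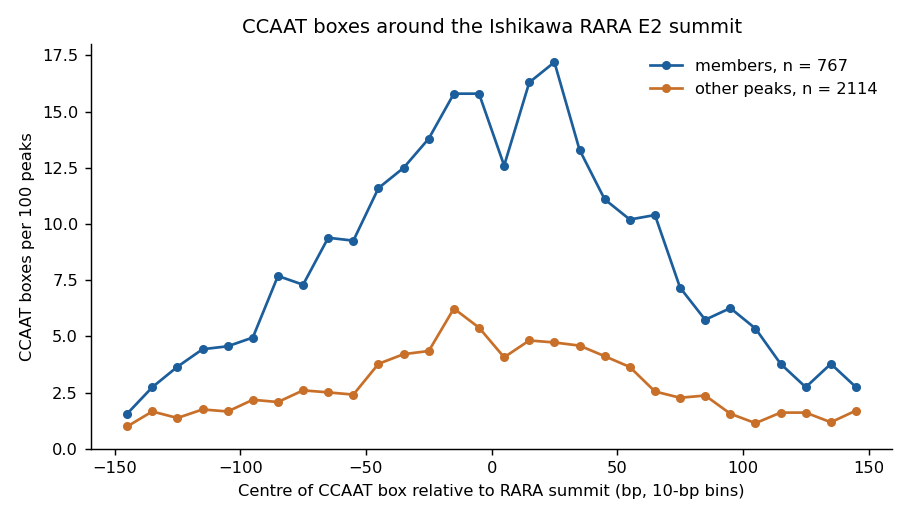
CCAAT boxes per 100 peaks in bins of 10 bp by the distance of the box from the Ishikawa RARA E2 summit, for members (blue) and other peaks (orange). Both curves are highest within about 50 bp of the summit, and the members' curve stands above that of other peaks in every bin.

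The CCAAT share of the RARA peaks differed from that of the other targets at promoters. Of promoter peaks in the RARA lists, 98.3% had a CCAAT box in Ishikawa DMSO, 76.2% in Ishikawa E2, 89.5% in T-47D DMSO and 91.8% in T-47D E2. RARA peaks of T-47D promoters without an Ishikawa E2 overlap had it in 66.2% (51 of 77, DMSO) and 79.1% (53 of 67, E2). Promoter peaks of every other list with at least 20 of them had it in 18.3 to 38.6%, except the T-47D SIN3A list in stripped medium with 62.8% (27 of 43). These lists held from 37 to 20277 promoter peaks. The H3K4me3 lists had 18.3 to 20.7%, below the 35.8% of all promoters. The part of list length and of summit position in these shares was not tested. Within the 3 groups by fold enrichment, promoter members had a box in 81.0%, 90.5% and 97.4% and promoter other peaks in 60.7%, 65.5% and 63.2%.

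Elements of nuclear receptors were rare among members. A DR1 of AGGTCA was found in 2 of 767 members (0.261%), those at CCDC51 and MRPS28, and in 7 of 20098 promoters (0.0348%). DR2 and DR5 were found in 0 members, which allows a share of up to 0.480% each, and in 2 and 0 promoters. An estrogen response element, GGTCA and TGACC with 3 bases between them, was in 0 members and 8 other peaks. The single hexamer AGGTCA was in 10.7% of members and 22.4% of other peaks, and within promoters in 10.0% and 11.7%, beside 13.3% of all promoters. The search took exact letters only, so that degenerate elements were not counted.

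Of the other motifs, the AP-1 element TGANTCA was in 3.52% of members (2.33 to 5.08%) and 20% of other peaks (18.3 to 21.8%), with 28.1% in distal other peaks and 6.37% in all promoters. Within promoter peaks the shares were 3.02% (1.90 to 4.54%) and 8.24% (6.49 to 10.3%). The GC box GGGCGG of SP factors was in 69.8% of members, 40.2% of other peaks and 52.2% of promoters. Within promoter peaks it was in 71.0% (67.6 to 74.3%) of members and 65.2% (61.9 to 68.4%) of other peaks, and in windows of 100 bases the order turned, with 28.3% and 33.3%. The ETS motif CCGGAAG was in 23.2% of members and 12.2% of other peaks, but in 24.3% and 24.6% when only promoter peaks were compared. In all promoters it was in 11.8%. The YY1 motif AAGATGGCG was in 4.56% of members and 1.61% of other peaks. Within promoter peaks it was in 4.67% and 3.83%, beside 1.87% of all promoters. The ZNF143 motif was in 5.36% of promoter members (3.84 to 7.25%) and 3.83% of promoter other peaks, beside 3.11% of all promoters. For the motifs of NRF1, BANP, E-box factors and CRE factors, promoter members had shares of 1.51 to 6.73%, beside 1.44 to 8.33% in all promoters.

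**Figure D3:**
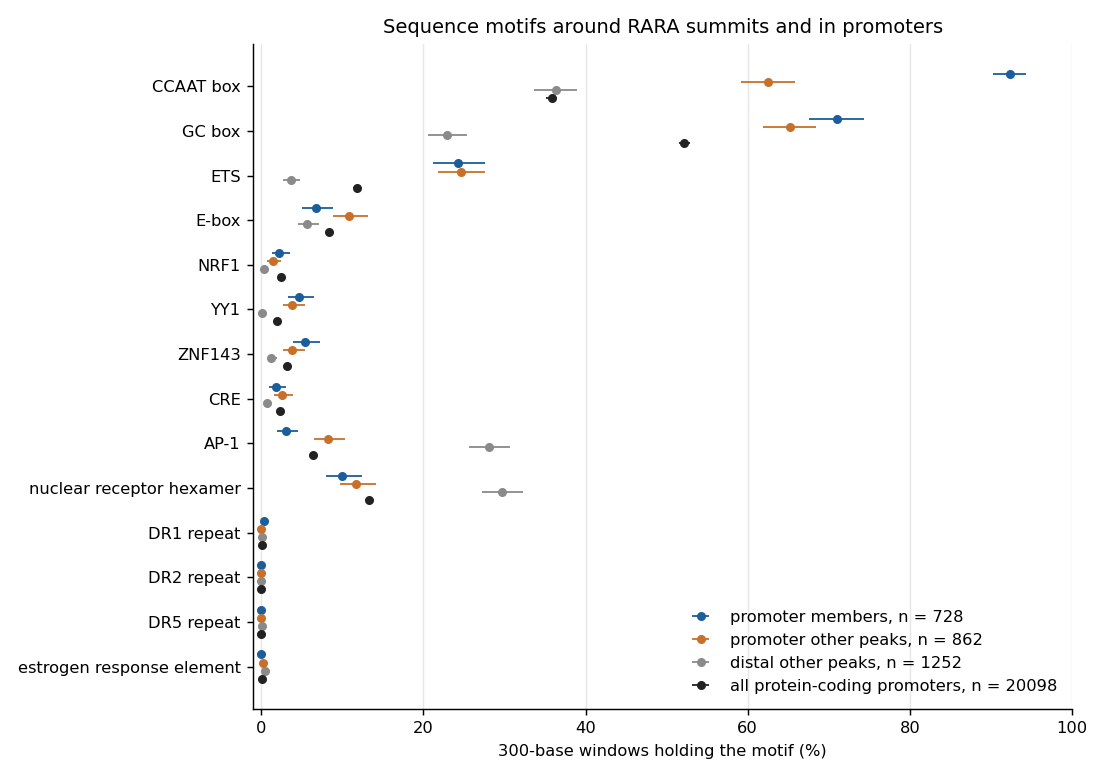
Share of 300-base windows that hold each motif (x axis, percent) in promoter members, promoter other peaks, distal other peaks and all protein-coding promoters, with exact binomial 95% intervals. The CCAAT box separates promoter members (92.4%) from the rest, AP-1 and the hexamer are most frequent in distal other peaks, and the direct repeats and the estrogen response element lie near 0 in every group.

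In Ishikawa, members carried the marks and factors of active promoters. Under E2, H3K4me3, a mark of active promoters, overlapped 95.3% of members and 73.3% of other peaks. TAF1, the largest subunit of the general factor TFIID, overlapped 96.9% and 74.6%. SIN3A, a corepressor scaffold, overlapped 93.0% and 65.1% in full medium. As a background, of 11841 start windows of protein-coding genes under Ishikawa H3K4me3 (401 bp each), 78.2% overlapped TAF1 and 68.8% SIN3A. When only promoter peaks were compared, TAF1 was at 98.5% of members and 92.5% of other peaks and SIN3A at 94.5% and 88.4%. For all of these pairs the binomial intervals of the 2 shares were apart, and with 1 library per list no test was made.

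Many Ishikawa E2 RARA peaks that touched an H3K4me3 peak had their summit outside it, above all for H3K4me3 peaks of T-47D. Summits here are those of the Ishikawa E2 list in every comparison. Most other peaks that touched one in Ishikawa had the summit inside. In Ishikawa E2, 48.9% of member summits were inside an H3K4me3 peak, although 95.3% of the peaks touched one, and for other peaks the shares were 55.0% and 73.3%. Against the H3K4me3 peaks of T-47D E2, the shares were 7.56% and 79.5% for members and 6.76% and 25.3% for other peaks. An Ishikawa TAF1 peak held 93.0% of member summits and 72.4% of other summits, and an RNAPII peak of T-47D E2 replicate 1 held 88.8% and 51.8%.

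Other peaks of Ishikawa more often overlapped H3K4me1, c-JUN, LSD1 and MAX. H3K4me1, a mark of enhancers, was at 0.652% of members and 33.2% of other peaks under E2, beside 2.36% of marked start windows. Distal other peaks had it in 49.2%, but H3K4me3 in 60.9% and TAF1 in 62.4%. c-JUN, an AP-1 subunit, was at 58.9% of members and 84.8% of other peaks under E2 (41.3% of marked start windows), and at 8.08% and 48.4% under DMSO. The histone demethylase LSD1 was at 55.9% and 73.5% under E2 (50.2% of marked start windows), and at 28.9% and 67.6% under DMSO. The E-box factor MAX was at 9.52% and 27.9% under E2 (4.70% of marked start windows). Within promoters alone, members and other peaks had c-JUN in 59.2% and 74.1%, LSD1 in 55.6% and 73.5% and MAX in 9.07% and 19.8%. The 18310 regions of the Ishikawa c-JUN E2 list and 18382 of LSD1 exceeded the 3763 and 8613 under DMSO, and the part of list length in the higher E2 shares was not tested.

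The H3K27me3 lists, which lie largely on H3K4me3 as stated above, gave 36.9% of members and 34.2% of other peaks in Ishikawa E2 (31.1% of marked start windows), with overlapping intervals. Within promoters the same list gave 37.2% (33.7 to 40.9%) of members and 47.8% (44.4 to 51.2%) of other peaks, with members lower and the intervals apart. In Ishikawa DMSO they gave 6.52% and 32.7%. c-MYC had 2 regions in Ishikawa E2 and touched 0 RARA peaks.

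In T-47D the difference between members and other peaks was 54.3 points for H3K4me3 and 39.0 points for TAF1, beside 22.0 and 22.2 points in Ishikawa. With a fold of at least 10 required in the TAF1 list, the TAF1 difference was 7.35 points in T-47D and 23.9 in Ishikawa. With the Ishikawa RARA summit inside the H3K4me3 peak, the H3K4me3 difference was 0.798 points in T-47D. Other peaks have no T-47D RARA peak by definition. H3K4me3 under E2 was at 79.5% of members and 25.3% of other peaks, and at 81.9% and 53.2% of promoter peaks. TAF1 was at 55.5% and 16.6% (44.1% of 9293 marked T-47D start windows), and at 57.3% and 39.0% of promoter peaks. c-JUN was at 96.0% and 47.2%, and at 97.1% and 83.5% of promoter peaks, but 90.4% of marked start windows overlapped the T-47D c-JUN list as well. c-JUN thus overlapped more members in T-47D than in Ishikawa, while H3K4me3, TAF1 and SIN3A overlapped more in Ishikawa. In Ishikawa and T-47D the c-JUN E2 lists held 18310 and 24883 regions and those of H3K4me3 E2 31897 and 29076. For TAF1 E2 they held 16552 and 5643, and for SIN3A in full medium 16458 and 649. Each time the longer list had the higher share, and the part of list length was not tested.

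SIN3A, c-MYC and MAX of T-47D met few members. SIN3A in full medium was at 10.8% of members and 3.41% of other peaks (5.08% of marked start windows), c-MYC under E2 at 11.5% and 4.59% (10.2%), and MAX under E2 at 8.87% and 4.21% (9.81%). Within promoters SIN3A was at 11.0% of members and 7.42% of other peaks, c-MYC at 11.1% and 9.40% and MAX at 8.93% and 10.1%, with overlapping intervals for each. H3K27me3 under DMSO was at 43.5% and 19.9% (34.0% of marked start windows). Within promoters it was at 44.1% (40.4 to 47.8%) and 37.6% (34.3 to 40.9%), with overlapping intervals. H3K4me1 under E2 was at 0 members and 15 other peaks, and LSD1 under E2, with 441 regions, was at 12 members and 14 other peaks.

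RNAPII was the one replicated target and was present at most members with or without E2. It overlapped 99.2% and 86.2% of members in DMSO replicates 1 and 2, and 98.4% and 91.8% in E2 replicates 1 and 2. The means were 92.7 ± 9.22% (SD, n = 2) and 95.1 ± 4.70% (SD, n = 2), a difference of 2.41 points (exact two-sided permutation test over 6 assignments, p = 1, where the smallest possible p is 0.33). The difference between replicates of a treatment was larger than that between treatments, and its sign turned without DMSO replicate 2 (-4.11 points) or without E2 replicate 1 (-0.913 points). Of marked T-47D start windows, 90.0% and 79.2% overlapped RNAPII in the E2 replicates. All 4 RNAPII lists had a peak at 654 members (85.3%) and 714 other peaks (33.8%), and none had one at 6 members and 864 other peaks. A peak in both E2 lists and neither DMSO list was found at 0 members and 11 other peaks.

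**Figure D4:**
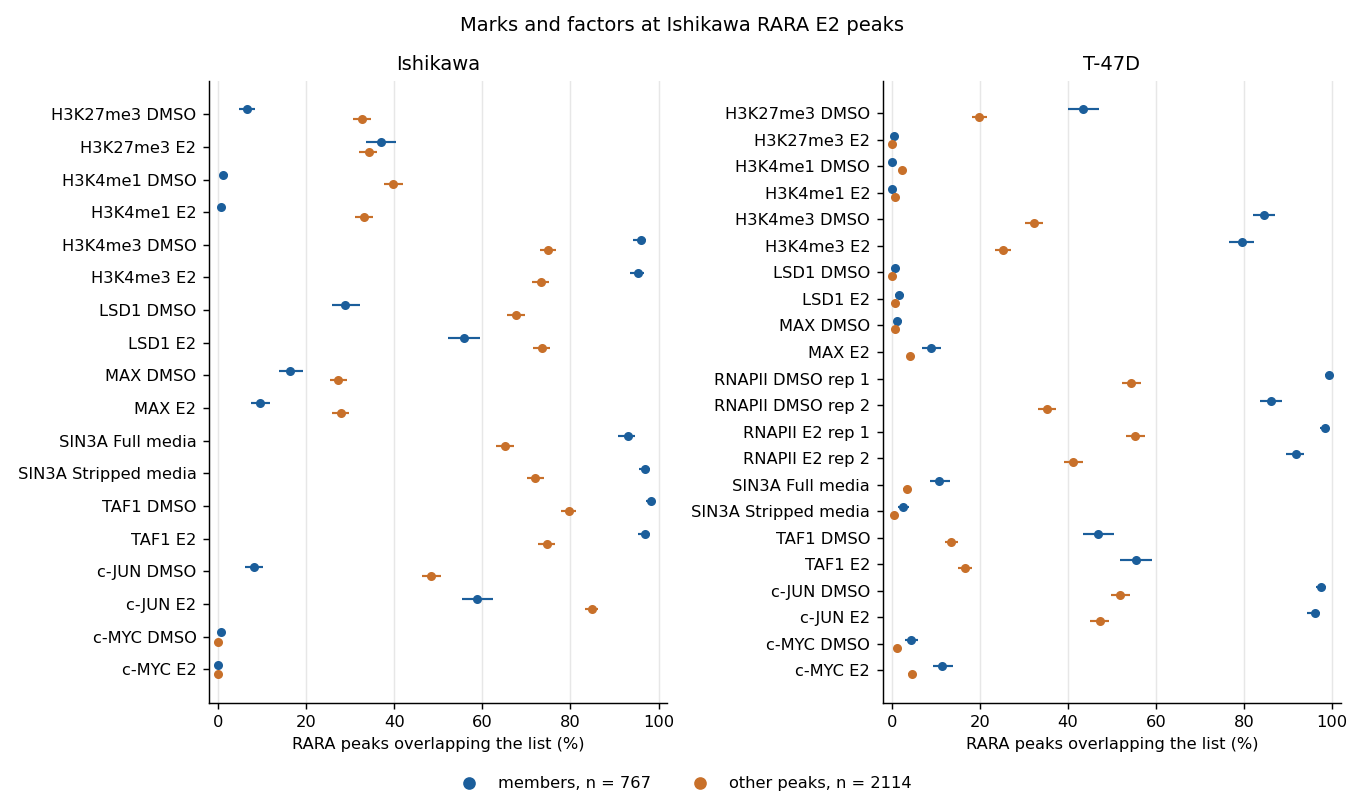
Share of members (blue, n = 767) and other peaks (orange, n = 2114) that overlap each peak list, other than those of RARA and H3K36me3, of Ishikawa (left) and T-47D (right), with exact binomial 95% intervals that cover counting error only. Members lie to the right of other peaks for H3K4me3, TAF1, SIN3A and RNAPII, and to the left for H3K4me1, LSD1, MAX and c-JUN in Ishikawa.

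A member lay at a start site of 889 of 20090 protein-coding genes (4.43%), and of 858 of the 11500 that had H3K4me3 at a start in both lines (7.46%). None of the gene lists of retinoid signalling and metabolism (0 of 39 genes), of the estrogen response (0 of 31), of AP-1 subunits (0 of 17) or of nuclear receptors (0 of 36) had a member. Other peaks were at 1, 1, 1 and 2 genes of these lists, and at 899 of all 20090 protein-coding genes (4.47%). Among 19 genes of RARA cofactors, members lay at SIN3A, at PRMT1, an arginine methyltransferase, and at NCOA2, a p160 coactivator. The SIN3A promoter peak had folds of 20.3 in Ishikawa E2, 17.3 in T-47D DMSO and 15.6 in T-47D E2, with 5 CCAAT boxes, and PRMT1 had 10.0, 15.3 and 13.9.

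Members were spread over genes of basic cell functions. Each list in this paragraph had a share above the 4.43% of all protein-coding genes. Among genes with H3K4me3 at a start in both lines, the shares were 14.3 to 25%, beside 7.46% of all such genes. Aminoacyl-tRNA synthetases had 5 of 20, among them IARS1 (Ishikawa E2 fold 16.9, T-47D DMSO 11.9, T-47D E2 9.68) and WARS1 (11.1, 13.1 and 14.2). DNA replication genes had 8 of 35, among them the helicase subunit MCM3 (10.1, 7.73 and 6.50), MCM5, CDC6 and CDC45. Translation initiation factors had 8 of 47, with EIF4A1, the mRNA helicase, at 15.1, 10.8 and 11.1. Splicing factors had 8 of 48, including SNRPF (16.1, 14.6 and 12.5), and proteasome subunits 5 of 39, including PSMD4 (12.7, 18 and 15.1). Other peaks were at 1, 4, 3, 7 and 5 genes of these lists in the same order, beside 4.47% of all protein-coding genes.

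Lower shares of all genes in a list were found for cytosolic ribosomal proteins (8 of 83), mitochondrial ribosomal proteins (8 of 78) and respiratory complex I (4 of 37). The same held for replication-dependent histones (6 of 64) and subunits of TFIID, RNAPII and Mediator (4 of 56, all of Mediator). More genes were at other peaks than at members in both ribosomal lists (12 and 12), in the list with Mediator (5) and among ZNF genes (38). The C2H2 zinc finger genes named ZNF had 25 of 508 at a member (4.92%), close to the 4.43% of all genes, with ZNF689 the strongest (15.1 in Ishikawa DMSO, 31.1 in Ishikawa E2, 23.6 in T-47D DMSO and 17.7 in T-47D E2). Among genes with H3K4me3 at a start in both lines, 7.69% of the list with Mediator and 6% of ZNF genes were at a member, beside 7.46%. On the same base, 5 of 17 histone genes (29.4%) were at a member, above the 14.3 to 25% of the lists in the preceding paragraph. The ribosomal lists and respiratory complex I had 10 to 10.8%. No enrichment test was made.

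Lists for mitosis, for the unfolded protein response with chaperones of the endoplasmic reticulum, and for cholesterol synthesis were written after the genes at members had been seen, and their shares are therefore not independent evidence. Mitosis genes had 25 of 80 (31.2%), with UBE2C, the E2 enzyme of the anaphase-promoting complex, at 16.4 in Ishikawa DMSO, 21.7 in Ishikawa E2, 25.1 in T-47D DMSO and 21.2 in T-47D E2. At SKA2, a kinetochore protein, the values were 24.3, 40, 20.3 and 18.7, and at TOP2A, DNA topoisomerase II alpha, 18.8, 31.6, 17.1 and 15.8. Also at members were, among others, AURKB, BUB1, CDC20, CDC25C, CENPA and CENPF. Other peaks were at 10 of the 80 genes.

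The unfolded protein response and chaperone list had 12 of 32 genes (37.5%) at members and 1 at other peaks. At EIF2AK3, which encodes the stress sensor kinase PERK, the values in the same order were 16.6, 25.2, 37.3 and 36.8. HSPA5, the chaperone BiP, had no Ishikawa DMSO peak and 21.1, 18 and 18.6 in the other lists, and HSP90B1 had 9.01, 18.1, 24.2 and 21.3. CALR, CANX, PDIA4 and SEL1L were also at members. The cholesterol list had 9 of 25 genes (36%) at members and 4 at other peaks. At members were HMGCS1 (20.6, 8.02 and 7.89 in Ishikawa E2, T-47D DMSO and T-47D E2) and MVD (15.2, 15 and 15.7).

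**Figure D5:**
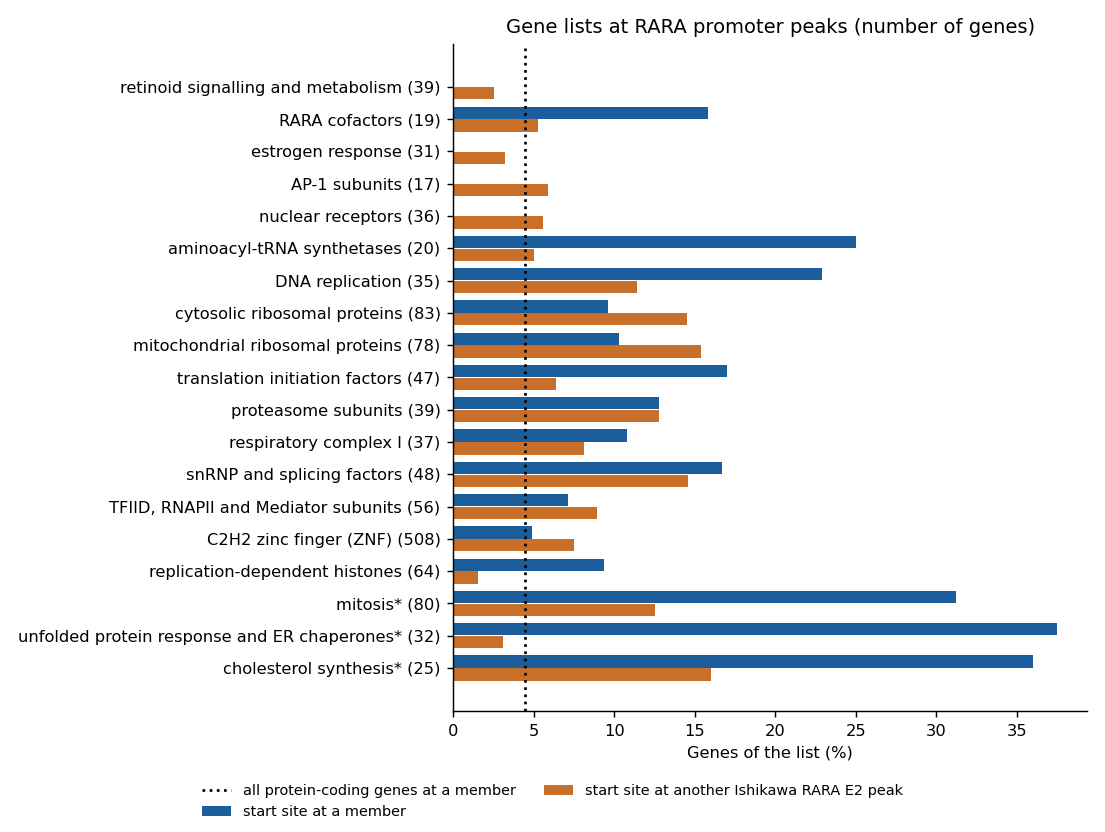
Share of the genes of each list (x axis, percent, number of genes in brackets) with a start site at a member (blue) or at another Ishikawa RARA E2 peak (orange); the dotted line is the 4.43% of all protein-coding genes at a member. The 3 lists marked with an asterisk were written after the genes at members were seen; the retinoid, estrogen, AP-1 and nuclear receptor lists have no gene at a member.

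Few members were found in 4 of the shorter lists of other targets. Of these (T-47D H3K27me3 E2, T-47D LSD1 DMSO, Ishikawa c-MYC DMSO and T-47D SIN3A in stripped medium), 23 members were in at least 1 and 6 in at least 2, beside 9 and 0 other peaks. The 6 had low Ishikawa E2 folds of 1.86 to 3.26, a ratio to local background. No region was left out of the members for recurring across targets. The lowest Ishikawa E2 fold of the 115 members in all 4 RARA lists was also 1.86. One lay on chromosome 1 nearest FAM72B, 3 on chromosome 6 on the PRIM2 side, and 2 on chromosome 21 near TPTE and MIR3648, and 1 of the 6 had a CCAAT box. At the other end, 2 members, named here after this was seen, had no peak of any other target in either line, an intronic site at -1519 bp from the nearest protein-coding start, that of MISP (31.3 in Ishikawa E2, 6 CCAAT boxes), and an intergenic site nearest ZNF469 (24.9, 4 boxes). Among other peaks, 38 had no peak of another target and 37 of these had a CCAAT box.

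The strongest other peaks lay at TSPEAR-AS2 (Ishikawa E2 fold 41.0), in a coding exon nearest CACNB1 (30.3), at a start of ENSG00000290523 (29.2), at XXYLT1 (26.5) and in an intron nearest AFAP1L2 (25.7). They overlapped 10 to 16 of the 19 other Ishikawa lists and 0 to 4 of the 22 other T-47D lists. Over all members the medians were 8 Ishikawa and 9 T-47D lists, and over all other peaks 9 and 3.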

How the data were processed

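Peak lists of 45 ChIP-seq libraries (49 samples, 4 of them inputs not used here) were analysed. Per the submitters' processing notes and the study's methods, the authors aligned reads with Bowtie 1.1.2 to hg19 and called peaks with MACS2 2.1.0.20140616, each library separately. The deposited lists give per peak a score, a fold enrichment (the ratio of pileup to local background at the summit), a −log10 p-value, a −log10 q-value and the summit offset. Every deposited peak had a −log10 p-value of at least 10.0. No read counts are given, so the depth of each library is unknown, and longer lists can come from deeper libraries.

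Members and gene lists were chosen with earlier results of these data known. Overlap meant at least 1 bp. Start sites and places came from GENCODE (v44 lifted to GRCh37), with a promoter defined as a start within 250 bp of the peak, and a wider class within 1000 bp. Motifs were searched on both strands in 300 bases around the summit of the GRCh37 sequence: the CCAAT box, the GC box GGGCGG, the ETS motif CCGGAAG, the nuclear receptor hexamer AGGTCA, the AP-1 motif TGANTCA, the YY1 motif AAGATGGCG, the ZNF143 motif ACTACAA, the NRF1 motif CGCATGCG, the BANP motif TCTCGCGA, the E-box CACGTG, the cyclic AMP response element (CRE) TGACGTCA, direct repeats of the hexamer spaced by 1, 2 or 5 bases, and the estrogen response element. A repeat also contains the AGGTCA hexamer and was counted for both. Promoters were 250 bases before to 50 after the start. Shares have exact (Clopper-Pearson) 95% intervals, which cover counting error only. The background share of a list was taken over 401-base windows at starts of protein-coding genes under H3K4me3 in that line. RNAPII treatments were compared with an exact two-sided permutation test. Nothing in the labels says that the replicates came from separate cultures, so its p measures only the spread between these libraries. No other comparison had replicates, and none was tested.

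Named regions were the 10 strongest members, the 8 strongest distal members, the 5 strongest other peaks, the 3 nearest to the overlap limit on either side, members at retinoid, estrogen, AP-1 or cofactor genes, up to 6 members in all 4 RARA lists, up to 4 genes per family list and members with a direct repeat. A few of these are not reported here. Alternatives to the overlap, thresholds, promoter definition, window, lists used and replicates were tried. Scripts used Python 3.11.15, numpy 2.4.6, pandas 2.3.3, scipy 1.17.1 and pysam 0.24.0 and were tested on simulated intervals and sequences.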

Additional observations from a re-analysis of the deposited data

Results flagged for a closer look

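For 6 targets the share of members with a peak moved in opposite directions with treatment in the 2 lines. Each share rests on 1 library, so none of these differences was tested, and the lists differ in length between treatments. For H3K27me3 the share went from 6.52% to 36.9% with E2 in Ishikawa (2193 and 6989 regions) and from 43.5% to 0.522% in T-47D (6301 and 99 regions), so that the changes differed by 73.4 points. For c-JUN it went from 8.08% to 58.9% in Ishikawa (3763 and 18310 regions) and from 97.5% to 96.0% in T-47D (28702 and 24883 regions), a difference of 52.4 points. The Ishikawa change minus the T-47D change was -14.5 points for MAX (16.4% to 9.52% against 1.30% to 8.87%), -10.0 points for TAF1 (98.3% to 96.9% against 46.9% to 55.5%) and -7.82 points for c-MYC (0.652% to 0 against 4.30% to 11.5%). For SIN3A, from stripped to full medium, it was -12.4 points (97.0% to 93.0% against 2.48% to 10.8%).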

How the results depend on the processing

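Of 34 alternative values of the main results, 24 counted as unchanged, 8 moved and 2 turned in sign. The rule was loose for some of them. RNAPII differences needed only the same sign, and numbers of members or lists only a similar size. With both T-47D lists required, 534 members thus counted as unchanged. Among the alternatives for single lists and further motifs, 60 counted as unchanged, 55 moved and 3 turned in sign. The number of members fell from 767 to 277 when a fold enrichment of at least 10 was required in every RARA list. The promoter share of members, 94.9%, was 91.3% by summit position, 91.9% with protein-coding starts alone and 97.0% for members with a fold of at least 10. The CCAAT share of members was 80.7% in a window of 100 bases. The CCAAT difference between members and other peaks, 44.2 points, was 29.9 within promoters, 30.4 in distal peaks and 55.0 in the strongest of the 3 groups by fold, the last chosen after seeing the data. The ETS difference turned from 11.1 points to -0.281 within promoters and -1.03 in distal peaks. The Ishikawa H3K4me3 difference turned from 22.0 points to -6.12 when the RARA summit had to lie inside the H3K4me3 peak. The GC box difference, 29.6 points, was 5.82 within promoters, and the AP-1 difference, -16.5 points, was -5.21. The Ishikawa H3K27me3 E2 difference, 2.74 points, was -9.06 by summit position, -5.73 with a fold of at least 10 and -26.2 in the DMSO list. The T-47D H3K4me3 difference, 54.3 points, was 0.798 by summit position, and that of TAF1, 39.0 points, was 7.35 with a fold of at least 10. When the DMSO or stripped-medium list was used, the difference between members and other peaks moved beyond its counting error for 15 of 20 lists. Leaving out the members in short lists was also chosen after seeing the data. The cause of these changes was not tested.

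The RNAPII difference between E2 and DMSO, 2.41 points, ranged from -4.11 to 8.93 points with 1 library left out and was below 0 without DMSO replicate 2 or E2 replicate 1 (-0.913 points). With a replicate block it was 2.41 points, from -0.782 in replicate 1 and 5.61 in replicate 2. The numbers were only shared, since 2 pairs cannot show that they pair the libraries. Without read counts, a missing peak shows only that none was called.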
